A study of Mus musculus with 24 samples.

Results

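The genes described here encode the proteins that carry newly made proteins and lipoproteins from the endoplasmic reticulum (ER) to the Golgi, together with the golgins that hold the Golgi stacks in place. They were chosen by name as a list of 58 genes of the secretory machinery around the Golgi, where the small GTPase Rab30 acts, and all 58 were found among the 54532 genes of the deposited count table. By role they comprised 12 genes of the COPII coat, its GTPases and exit-site scaffolds, 9 cargo receptors and large-cargo adaptors, 7 genes of the tether and SNAREs, 8 subunits of the COPI coat, 7 Arf and Arl GTPases and their exchange factors, 3 KDEL receptors, and 12 golgins, Golgi reassembly proteins and a trans-Golgi protein.

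Secretory cargo leaves the ER in vesicles that are coated by COPII, whose assembly starts when Sar1 binds GTP and recruits the Sec23 and Sec24 subunits. Cargo receptors link soluble proteins to the coat, a tether and SNAREs dock and fuse the vesicles at the Golgi, and the COPI coat, recruited by Arf GTPases, returns escaped ER proteins and receptors. Hepatocytes, the main cells of the liver, send most plasma proteins and very low density lipoproteins through this route, and golgins are long coiled-coil proteins that capture vesicles and keep the Golgi in order.

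RNA-seq was made from livers of 24 male mice, aged 8 to 10 weeks by the study's methods, after a 24 h fast, with 4 livers in each of 6 genotype groups. In Rab30KO mice exon 4 of Rab30 was missing from every tissue, and Rab30 Ctrl mice were their wild-type littermates. The other 4 groups came from floxed colonies in which albumin-Cre deletes in hepatocytes: Rab30L-/- lost Rab30, Cpt2L-/- lost carnitine palmitoyltransferase 2, which admits long-chain fatty acids to mitochondrial oxidation, DKO lost both, and the floxed controls (ff;ff in the study) carried both floxed genes without Cre. The floxed controls were littermates of the DKO mice only, so litter and genotype cannot be told apart where another group was set against them. The same holds where DKO was set against a single knockout, which is not labelled as its littermate. Whole liver was sequenced, and fewer cells of a type and less RNA per cell cannot be told apart in such samples.

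Library totals ranged from 11801027 to 24497738 counts. Levels are given below as CPM, read counts relative to the library total after TMM scaling, and a gene was called changed where edgeR's quasi-likelihood test gave an adjusted p below 0.05 over all genes tested and the difference reached 1.2-fold. Rab30 itself had a mean of 36.5 ± 9.54 CPM (SD, n = 4) in the floxed controls, 17.1 ± 7.35 in Rab30L-/-, 147 ± 29.96 in Cpt2L-/- and 161 ± 57.8 in DKO, and Cpt2 had 132 ± 5.13, 219 ± 40.3, 127 ± 30.2 and 105 ± 10.9. In Rab30 Ctrl and Rab30KO the means of Rab30 were 14.1 ± 10.8 and 11.2 ± 5.04 CPM. Counts over a whole gene include reads outside the deleted part and do not check these labels, so a library is named by its label throughout. All 6 hepatocyte markers were detected in every group, and their summed level ran from 93786 to 117807 CPM in the floxed controls, from 75828 to 90245 in Rab30L-/-, from 43240 to 53493 in Cpt2L-/- and from 57676 to 71036 in DKO. Alb made up most of this sum, with a mean of 82978 CPM in the floxed controls. Marker by marker, 4 of the 6 (Alb, Ttr, Serpina1a and Tat) were lower without overlap in Cpt2L-/- than in the floxed controls and 3 (Ttr, Apoa1 and Serpina1a) in DKO than in Rab30L-/-, and the libraries of the others overlapped. The 9 Kupffer cell, 9 stellate cell, 7 endothelial and 6 bile duct markers all had reads in every group, and each list's sum overlapped between the floxed controls and Cpt2L-/-. The Kupffer cell sum ran from 177 to 236 CPM in DKO and from 239 to 704 in Rab30L-/-, with 7 of the 9 markers lower without overlap. Cd68, a lysosomal marker of macrophages in that list, was higher without overlap, from 5.28 to 10.4 CPM in Rab30L-/- against 23.3 to 62.3 in DKO, and from 4.67 to 8.24 CPM in the floxed controls against 28.5 to 48.4 in Cpt2L-/-. Of the other lists, the bile duct marker Sox9 was lower without overlap in both comparisons, from 3.62 to 5.85 CPM in the floxed controls against 0.576 to 1.70 in Cpt2L-/-, and from 3.81 to 9.58 in Rab30L-/- against 1.10 to 2.34 in DKO. The stellate cell marker Dcn and the endothelial marker Oit3 were higher without overlap in DKO than in Rab30L-/-. The neutrophil marker Retnlg, at 1.65 CPM or less in both groups, was lower without overlap in DKO than in Rab30L-/-. The B cell and plasma cell marker Jchain was lower without overlap in Cpt2L-/- than in the floxed controls. The libraries of all T cell markers overlapped in both comparisons.

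Per length, as the FPKM values that the authors deposited allow, the list spanned a wide range in the floxed controls. Sar1b, the GTPase that starts COPII assembly on lipoprotein cargo, was the highest at 166 ± 30.02 FPKM (SD, n = 4), followed by Arf1 at 103 ± 4.37, Mcfd2 at 86.2 ± 8.23, Surf4 at 74.2 ± 5.03 and Tmed2 at 55.4 ± 7.86. Mcfd2 works with Lman1 as the receptor of clotting factors, and Surf4 is a receptor of lipoproteins and other secreted proteins. The lowest were Golga1 at 3.68 ± 0.609, Gcc1 at 2.999 ± 0.359, Golga3 at 2.76 ± 0.476 and Kdelr3 at 0.0731 ± 0.0426 FPKM. Thus the golgins took up 3 of the lowest 4 places.

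Per length, the liver favoured 1 copy in some sets of paralogues and not in others. Sar1b made up 86.2 ± 2.06% (SD, n = 4) of the summed FPKM of Sar1a and Sar1b in the floxed controls, and Sec23a made up 88.5 ± 1.39% of that of Sec23a and Sec23b, and in both sets the libraries of the copies did not overlap. Sec16b, at 29.8 ± 2.79 FPKM, lay above Sec16a at 16.6 ± 3.24, again without overlap. Among the cargo-binding subunits of COPII the means ran from Sec24d at 18.8 ± 3.65 through Sec24c at 16.7 ± 1.504 and Sec24a at 13.2 ± 2.33 to Sec24b at 6.002 ± 1.69 FPKM, and only Sec24b stood clear of its neighbour. In the Arf set the order was Arf1, Arf4 at 33.1 ± 3.92, Arf5 at 22.9 ± 2.01 and Arf3 at 12.9 ± 0.372 FPKM, with every neighbour apart. Copg1 and Copg2, Kdelr1 and Kdelr2, Mia2 and Mia3, and Lman1 and Lman2 overlapped with their partner. These orders rest on a single exon length per gene, such as 11011 bases for Copg1 and 5121 for Copg2. By CPM, which does not divide by length, Copg1 (61.7 to 71.6) lay above Copg2 (25.3 to 48.6) in the floxed controls. Mia2 (400 to 550) lay above Mia3 (181 to 237), and Arf3 (58.4 to 63.2) above Arf5 (38.6 to 47.6). Sec16a (120 to 178) and Sec16b (144 to 172) overlapped by CPM. The plot of levels per length sets these values beside those of the knockout livers.

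**Figure D1:**
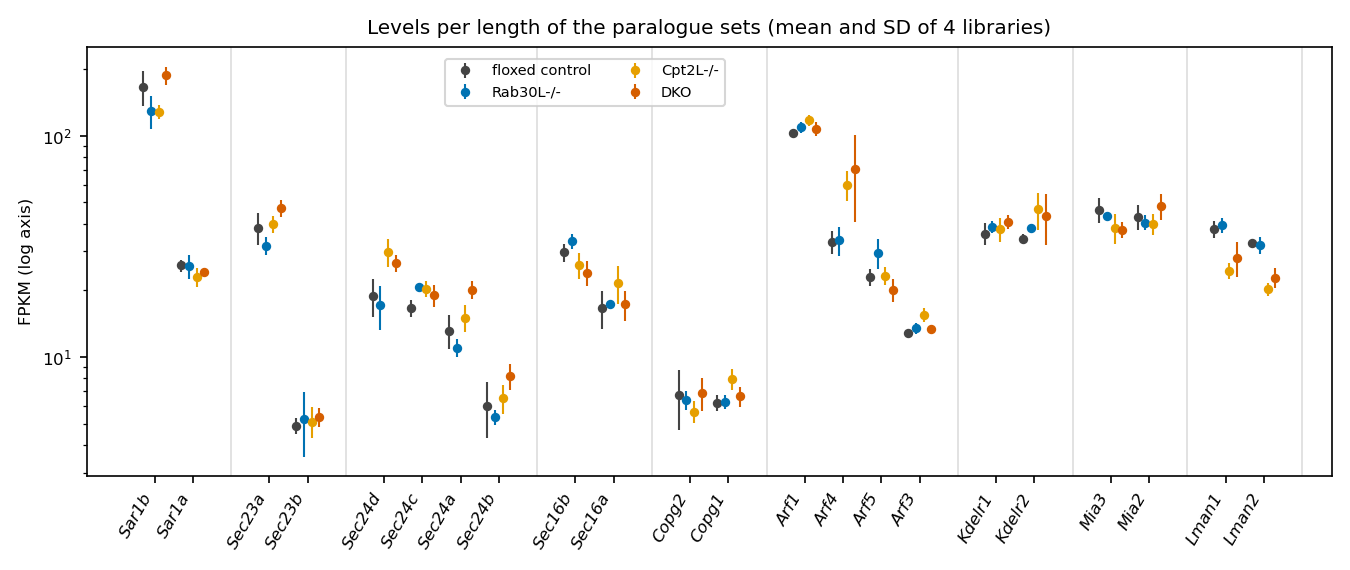
FPKM (y axis, log scale) of the paralogue sets, Kdelr3 left out, in floxed controls and in Rab30L-/-, Cpt2L-/- and DKO livers, with points at the mean and bars at the SD of 4 libraries. Sar1b and Sec23a lie far above their partners in every group, and Arf4 rises above its floxed control level of 33.1 FPKM in Cpt2L-/- and DKO.

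The first question was whether loss of Rab30 alone altered the RNA of this machinery. In Rab30KO against Rab30 Ctrl no member was called of 57 tested, where 0.0220% of all genes tested were called. None had an unadjusted p under 0.05, beside 2.21% of all genes tested. The DESeq2 Wald test and limma-voom also called 0 members, beside 0.0732% and 0.00732% of all genes tested. The log2 fold changes ran from -0.29 (Golga2, a cis-Golgi golgin) to 0.23 (Copg2), their median was 0.04 beside -0.00 for all genes, and the 95% interval of every one of the 57 lay within 2-fold in either direction. Every member's libraries overlapped between the groups, where those of 1.31% of all genes tested did not.

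In Rab30L-/- against the floxed controls no member was called of 57, where 0.479% of all genes tested were called. An unadjusted p under 0.05 was reached by 2 of the 57, beside 11.2% of all genes tested. The DESeq2 Wald test and limma-voom called 0 members as well, beside 2.23% and 1.79% of all genes tested, with 2 and 4 members at an unadjusted p under 0.05. The 2 were Sec24c, a COPII subunit, with 91.1, 106, 112 and 102 CPM in the floxed controls and 125, 126, 140 and 125 in Rab30L-/-, and Arf5, with 38.6, 40.9, 44.4 and 47.6 CPM and 57.1, 66.9, 48.6 and 51.1. Together with Kdelr2 these were the 3 of 57 members whose libraries did not overlap, where 6.38% of all genes tested did not overlap. The log2 fold changes ran from -0.35 (Sar1b) to 0.38 (Arf5), and again all 57 intervals lay within 2-fold. Golga5, a golgin that the study lists among binding partners of Rab30, had a mean of 42.3 ± 6.62 CPM in the floxed controls and 37.3 ± 3.43 in Rab30L-/- (SD, n = 4 each), and 26.6 ± 5.68 in Rab30 Ctrl and 26.7 ± 2.57 in Rab30KO.

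**Figure D2:**
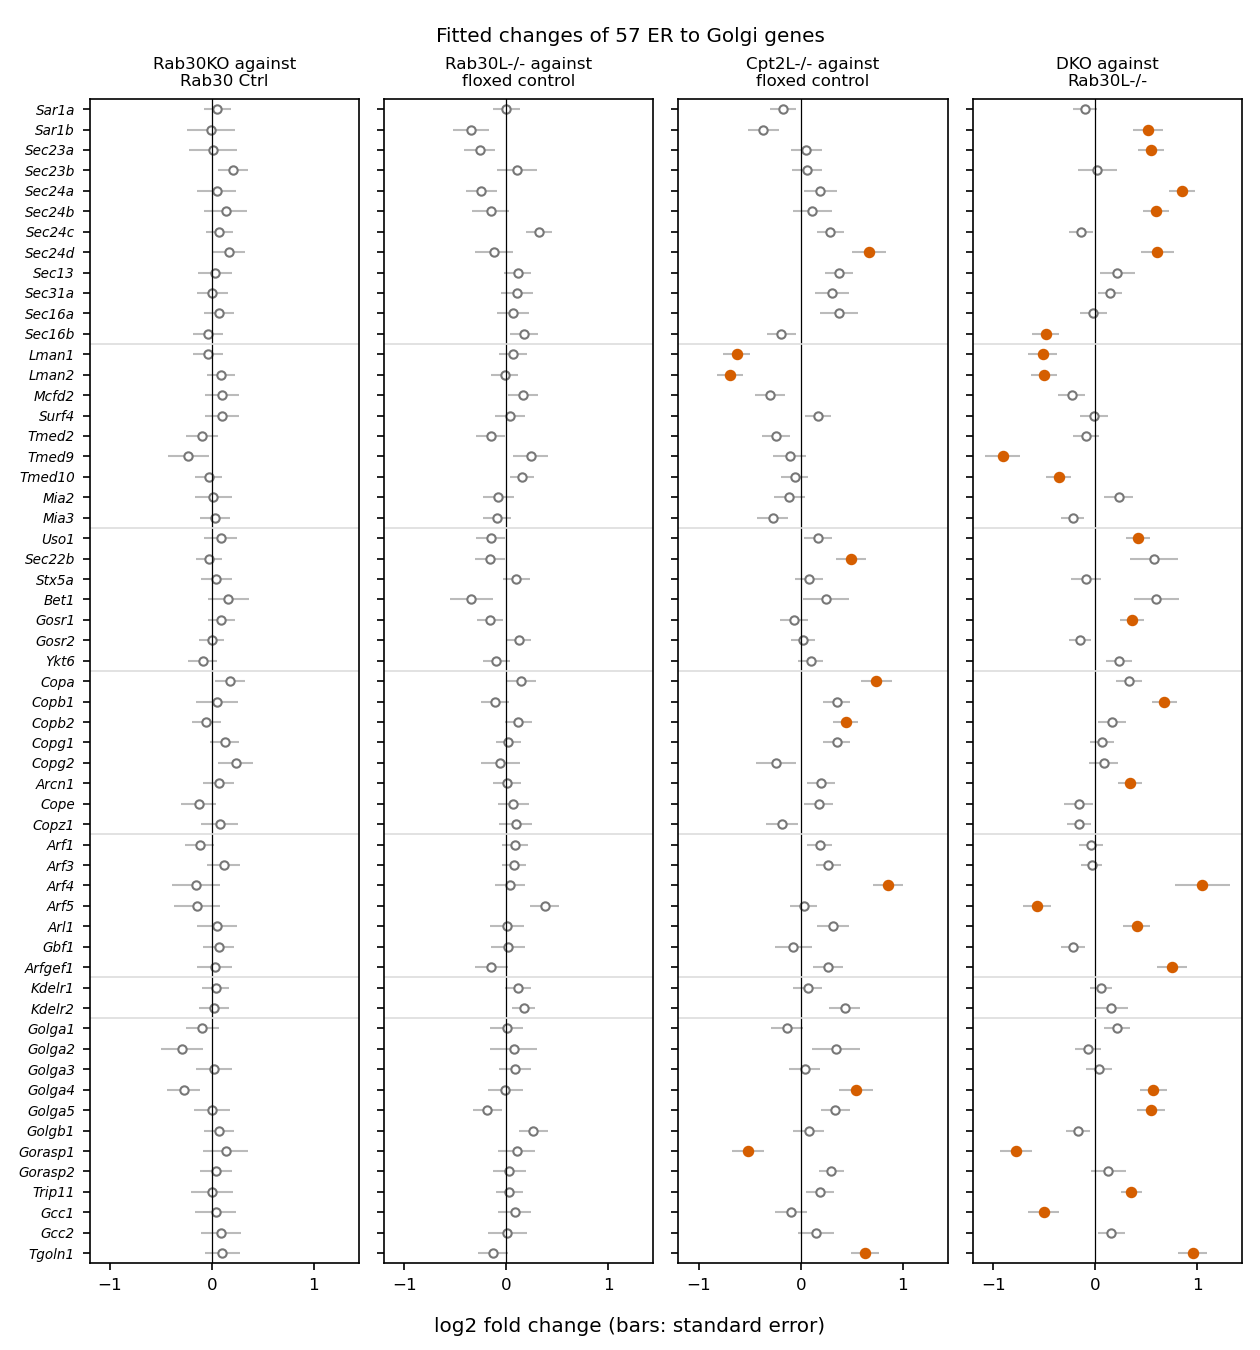
Log2 fold change (x axis) of 57 members, Kdelr3 left out, in 4 comparisons, by role from COPII at the top to golgins at the bottom, with bars at the standard error and filled points for called members. No point is filled for either loss of Rab30, 10 are filled for Cpt2L-/- against floxed controls and 24 for DKO against Rab30L-/-.

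Loss of Cpt2 was measured in 2 comparisons that share no library. In neither were the groups labelled as littermates, so litter and genotype cannot be told apart in either. In Cpt2L-/- against the floxed controls 11 of 58 members were called, 8 higher and 3 lower, which is 18.97% beside 23.8% of all genes tested (11.9% higher and 11.9% lower). With all libraries, Kdelr3 passed the filter on low counts only where Cpt2L-/-, a group in which it is high, took part, so that its call is no support, and without it 10 of 57 were called, 7 higher and 3 lower. In DKO against Rab30L-/-, where Rab30 was deleted on both sides, 24 of 57 were called, 16 higher and 8 lower, which is 42.1% beside 30.7% of all genes tested (14.9% higher and 15.8% lower). The libraries of 16 of 57 members (28.1%, Kdelr3 left out) did not overlap in the first, beside 26.7% of all genes tested, and those of 26 (45.6%) did not in the second, beside 31.5%. The median log2 fold change of the members, Kdelr3 left out, was 0.15 in the first and 0.08 in the second, beside -0.00 and -0.01 for all genes tested. The hepatocyte marker sums, mostly Alb, were lower with Cpt2 deleted in both comparisons and the Kupffer cell sum in the second, with the exceptions among single markers given above, and the part of either in these changes was not tested.

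By role the counts were small, and no difference between roles was tested. None of the 9 cargo receptors was called higher in either comparison, and 2 were lower in Cpt2L-/- and 4 in DKO against Rab30L-/-. The COPI coat had 2 of 8 subunits called higher in each and none lower, and the COPII group had 1 of 12 higher in the first, and 5 higher and 1 lower in the second. The golgin group split, with 2 higher and 1 lower of 12 in Cpt2L-/- and 4 higher and 2 lower in DKO against Rab30L-/-. The split of higher and lower calls depended on the scaling. With library totals in place of TMM, 30 members were called higher and 1 lower in Cpt2L-/-, and 22 higher and 4 lower in DKO against Rab30L-/- (45.6% beside 34.1% of all genes tested), while the median of all genes moved to 0.28 and 0.14 and that of the members to 0.45 and 0.23. The share of members called in Cpt2L-/- then lay above that of all genes, 53.4% beside 34.5%, as it did with limma-voom, 39.7% beside 31.9%, and with no filter on low counts, 17.2% beside 13.7%. No called member changed sign with that scaling, but Lman1 and Gorasp1 were no longer called in Cpt2L-/-, nor Sec16b, Lman1, Tmed10 and Gcc1 in DKO against Rab30L-/-.

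Of the called members, 7 were called in both comparisons and all 7 in the same direction. Of the 57 members tested in both, that is 7 of the 10 called in the first and 29.2% of the 24 called in the second. Of the 12970 genes tested in both, 1734 were called in both, which is 56.3% of the 3082 called in the first and 43.2% of the 4015 called in the second, and 97.1% of the 1734 had the same direction. They were Sec24d, Arf4, Golga4 and Tgoln1, which rose, and Lman1, Lman2 and Gorasp1, which fell. The heat map by library shows them beside the other called members.

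**Figure D3:**
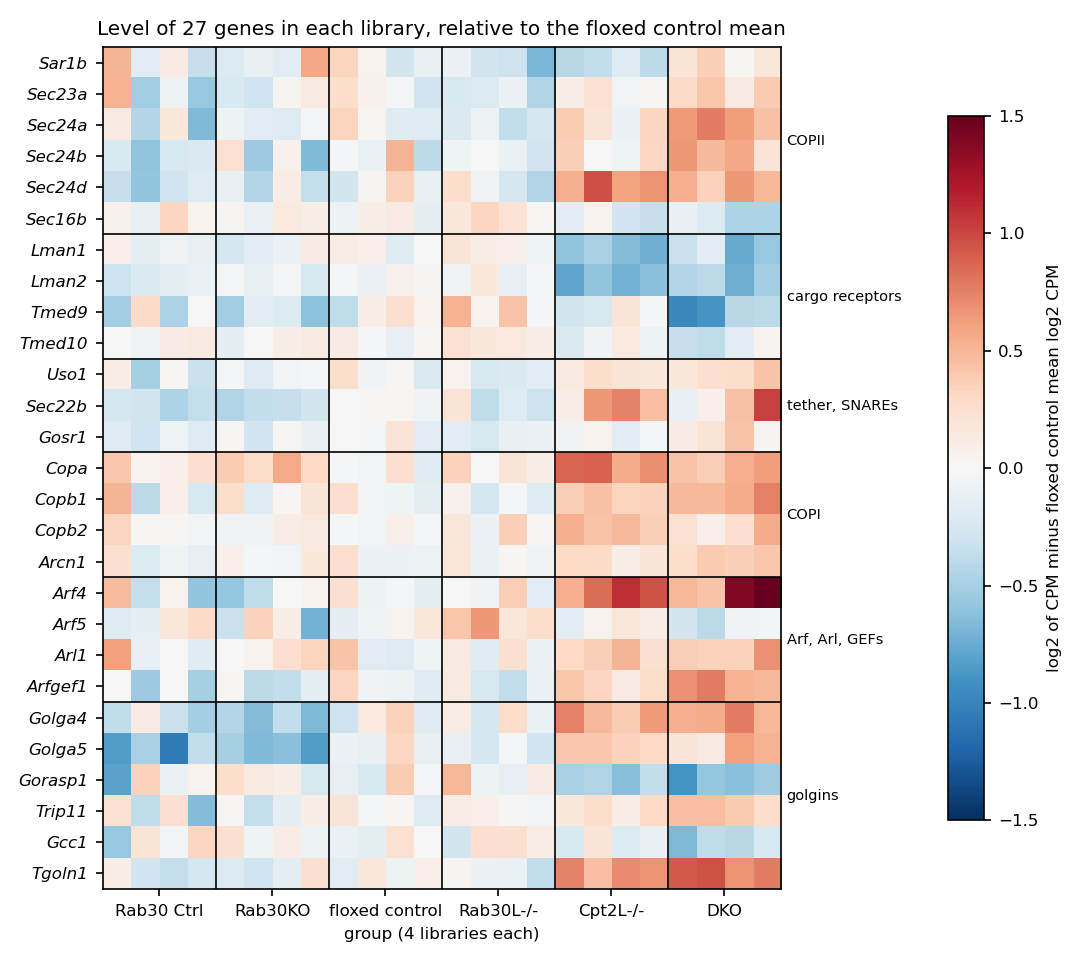
Log2 CPM of 27 members called in at least 1 comparison, Kdelr3 left out, minus the mean of the floxed controls, with 1 column per library and rows by role. The columns of Cpt2L-/- and DKO are red for Sec24d, Copa, Arf4, Golga4 and Tgoln1 and blue for Lman1, Lman2 and Gorasp1, and Golga5 is blue in both Rab30KO and Rab30 Ctrl. Colours stop at 1.5 in either direction.

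Among the COPII genes, Sec24d (chr3:123267455-123365641, plus strand, GRCm38) encodes a cargo-binding subunit of the coat. Its libraries read 95.4, 118, 146 and 106 CPM in the floxed controls, 139, 111, 96.3 and 84.3 in Rab30L-/-, 166, 225, 174 and 183 in Cpt2L-/-, and 168, 146, 180 and 163 in DKO. All 4 Cpt2L-/- libraries lay above all floxed controls, and all 4 DKO libraries above all Rab30L-/-. On the log2 scale it rose by 0.67 ± 0.16 (SE here and below, adjusted p = 0.00952) in the former comparison and by 0.61 ± 0.16 (adjusted p = 0.0142) in the latter. Sec24a, a further cargo-binding subunit, read 172, 139, 121 and 120 CPM in the floxed controls, 117, 130, 106 and 115 in Rab30L-/-, 178, 158, 129 and 171 in Cpt2L-/-, and 213, 232, 211 and 186 in DKO. It rose by 0.85 ± 0.12 (adjusted p = 0.000561) from Rab30L-/- to DKO, and was 0.60 ± 0.15 higher (adjusted p = 0.0182) in DKO than in the floxed controls, a call lost in 3 of the 8 fits that left out 1 library. Its Cpt2L-/- libraries overlapped with the floxed controls.

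Sec24b, Sec23a and Sar1b also rose from Rab30L-/- to DKO. The log2 fold changes were 0.60 ± 0.13 (adjusted p = 0.00547) for Sec24b and 0.55 ± 0.12 (adjusted p = 0.00660) for Sec23a, which activates the GTPase of Sar1, and the libraries of both genes did not overlap between the groups. Sec16b, a scaffold of ER exit sites, fell by 0.49 ± 0.13 on the log2 scale (adjusted p = 0.0150), with 177, 197, 183 and 160 CPM in Rab30L-/- and 145, 137, 114 and 114 in DKO. The remaining COPII genes, Sar1a, Sec23b, Sec24c, Sec13, Sec31a and Sec16a, were called in none of the comparisons. By share of the 4 Sec24 genes' FPKM, Sec24d held 34.2 ± 3.67% (SD, n = 4) in the floxed controls, 31.4 ± 4.53% in Rab30L-/-, 41.7 ± 4.62% in Cpt2L-/- and 35.9 ± 2.58% in DKO. Sec24a held 24.4 ± 5.26%, 20.4 ± 1.86%, 20.9 ± 1.91% and 27.3 ± 2.42% in the same order. The share of Sec24c differed most between Rab30L-/- and DKO, with 30.6 ± 2.25%, 38.3 ± 3.88%, 28.4 ± 1.94% and 25.7 ± 1.26%.

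Sar1b was the 1 member called in DKO against Cpt2L-/- (1 of 58, or 1.72%, beside 2.71% of all genes tested) and in the interaction of the 2 deletions (1 of 58, or 1.72%, beside 4.06% of all genes tested). It read 253, 210, 167 and 186 CPM in the floxed controls, 190, 167, 163 and 125 in Rab30L-/-, 151, 156, 178 and 154 in Cpt2L-/-, and 232, 258, 205 and 227 in DKO. Every DKO library lay above every Cpt2L-/- library and every Rab30L-/- library, while DKO and the floxed controls overlapped. The log2 fold change from Cpt2L-/- to DKO was 0.54 ± 0.11 (adjusted p = 0.0327) and that from Rab30L-/- to DKO was 0.52 ± 0.15 (adjusted p = 0.0202). The interaction, the change from Cpt2L-/- to DKO less that from the floxed controls to Rab30L-/-, was 0.89 ± 0.21 (adjusted p = 0.0236). The call in DKO against Cpt2L-/- held in 3 of 8 fits that left out 1 library, the interaction held in 16 of 16, and a fit over all 24 libraries lost both, with adjusted p = 0.186 and 0.0765. DKO mice and the floxed controls were littermates and the single knockouts were not, so this pattern and litter cannot be told apart.

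Sar1b and Sec24a lie head to head on chromosome 11 of GRCm38, Sec24a from 51692264 to 51763634 on the minus strand and Sar1b from 51763687 to 51791925 on the plus strand, with 52 bases between them. The RefSeq promoter of Sar1b is shown because it holds that stretch, which is in capitals.
Sar1b (chr11:51763413-51763712, plus strand): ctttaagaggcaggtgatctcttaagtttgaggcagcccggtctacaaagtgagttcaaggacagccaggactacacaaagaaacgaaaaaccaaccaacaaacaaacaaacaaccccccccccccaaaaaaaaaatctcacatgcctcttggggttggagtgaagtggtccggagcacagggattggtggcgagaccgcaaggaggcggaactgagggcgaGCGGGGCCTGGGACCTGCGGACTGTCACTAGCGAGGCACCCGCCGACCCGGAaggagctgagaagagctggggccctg
In the interaction Sec24a had a log2 value of 0.67 ± 0.20 (adjusted p = 0.0658), which was not called.

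Of the 9 cargo receptors, Lman1, Lman2, Tmed9 and Tmed10 were called, all lower. Lman2, a lectin that binds high-mannose glycoproteins (chr13:55343833-55362783, minus strand), read 252, 239, 264 and 261 CPM in the floxed controls, 244, 283, 233 and 249 in Rab30L-/-, 146, 168, 155 and 164 in Cpt2L-/-, and 187, 191, 153 and 178 in DKO. The highest library with Cpt2 deleted, at 191 CPM, lay below the lowest with Cpt2 kept, at 233 in the floxed colonies and 202 in Rab30 Ctrl. Lman2 fell by 0.69 ± 0.13 on the log2 scale (adjusted p = 0.00139) in Cpt2L-/- against the floxed controls, by 0.51 ± 0.13 (adjusted p = 0.0113) in DKO against Rab30L-/-, and by 0.53 ± 0.13 (adjusted p = 0.0166) in DKO against the floxed controls. Lman1, the lectin that carries clotting factors with Mcfd2, read 258, 251, 209 and 237 CPM in the floxed controls, 272, 255, 252 and 227 in Rab30L-/-, 157, 171, 152 and 144 in Cpt2L-/-, and 188, 211, 141 and 160 in DKO. It fell by 0.63 ± 0.13 (adjusted p = 0.00376) in Cpt2L-/- and by 0.52 ± 0.15 (adjusted p = 0.0203) from Rab30L-/- to DKO. The share of Lman1 in the summed FPKM of both lectins stayed between 53.7 ± 3.21% and 55.2 ± 2.74% (SD, n = 4) in the 4 floxed groups.

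Tmed9 and Tmed10 belong to the p24 family, which cycles between ER and Golgi and sorts anchored proteins. Tmed9 (chr13:55573732-55597697, plus strand) read 27.6, 38.6, 42.4 and 37.3 CPM in the floxed controls, 51.9, 37.3, 48.6 and 35.3 in Rab30L-/-, 29.7, 30.4, 41.0 and 35.4 in Cpt2L-/-, and 18.5, 19.5, 26.96 and 27.1 in DKO. All 4 DKO libraries were below every library of the other 3 floxed-colony groups, but not below those of Rab30KO and Rab30 Ctrl, whose lowest were 23.6 and 25.3 CPM, and Cpt2L-/- overlapped with the floxed controls. Tmed9 fell by 0.91 ± 0.17 on the log2 scale (adjusted p = 0.00258) from Rab30L-/- to DKO and by 0.67 ± 0.18 (adjusted p = 0.0255) from the floxed controls to DKO, the latter in 3 of 8 fits that left out 1 library. Tmed10 fell by 0.36 ± 0.12 (adjusted p = 0.0427) from Rab30L-/- to DKO, a call that held in 1 of 8 such fits. Mcfd2, Surf4, Tmed2 and the large-cargo adaptors Mia2 and Mia3, which pack cargo such as collagen and lipoproteins, were called in no comparison. Mia2 ran from 395 to 611 CPM over the 16 floxed-colony livers.

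Of the tether and SNAREs, Uso1, the tether that links vesicles to the Golgi, rose by 0.42 ± 0.12 on the log2 scale (adjusted p = 0.0201) from Rab30L-/- to DKO. The Golgi SNARE Gosr1 rose by 0.36 ± 0.12 (adjusted p = 0.0355) in that comparison, in 1 of 8 fits that left out 1 library. Sec22b, the ER SNARE of this step, read 47.1, 48.0, 48.4 and 45.7 CPM in the floxed controls, 50.6, 74.3, 79.2 and 64.7 in Cpt2L-/-, and 43.9, 49.96, 64.0 and 96.0 in DKO. It was 0.49 ± 0.15 higher (adjusted p = 0.0301) in Cpt2L-/- than in the floxed controls, a call that held in 3 of 8 such fits. In DKO it was called against neither control group. Stx5a, Bet1, Gosr2 and Ykt6 were called in no comparison.

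In the COPI coat, which returns proteins from the Golgi to the ER, Copa (chr1:172082529-172122330, plus strand) read 174, 174, 213 and 156 CPM in the floxed controls, 226, 179, 203 and 189 in Rab30L-/-, 327, 329, 261 and 288 in Cpt2L-/-, and 240, 230, 260 and 274 in DKO. Among the floxed-colony livers every library with Cpt2 deleted lay above every library with it kept, while Rab30KO and Rab30 Ctrl libraries reached 265 and 236 CPM. The log2 fold change was 0.74 ± 0.15 (adjusted p = 0.00312) in Cpt2L-/- and 0.48 ± 0.14 (adjusted p = 0.0388, in 2 of 8 fits that left out 1 library) in DKO, each against the floxed controls. In DKO against Rab30L-/- it was 0.33 ± 0.13 (adjusted p = 0.0640), which was not called. Copb1 (chr7:114215559-114254711, minus strand) read 170, 138, 136 and 129 CPM in the floxed controls, 149, 119, 139 and 124 in Rab30L-/-, 184, 194, 179 and 181 in Cpt2L-/-, and 200, 200, 210 and 240 in DKO. Its Cpt2L-/- libraries also lay above the floxed controls, although the call was made in DKO alone, with 0.68 ± 0.12 (adjusted p = 0.00208) against Rab30L-/- and 0.56 ± 0.14 (adjusted p = 0.0164) against the floxed controls. Copb1 lies on the chromosome of Rab30, 21.4 Mb from it.

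Copb2 rose by 0.44 ± 0.12 on the log2 scale (adjusted p = 0.0176) in Cpt2L-/-, in 5 of 8 fits that left out 1 library, and Arcn1, the delta subunit, rose by 0.34 ± 0.12 (adjusted p = 0.0477) from Rab30L-/- to DKO, in 1 of 8. Copg1, Copg2, Cope and Copz1 were called in no comparison. Of the summed FPKM of the gamma subunits, Copg1 held 48.9 ± 8.30% (SD, n = 4) in the floxed controls, 49.5 ± 3.995% in Rab30L-/-, 58.4 ± 3.63% in Cpt2L-/- and 49.4 ± 6.86% in DKO.

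Among the GTPases, Arf4, which acts at the Golgi with Arf1 and is known to be induced by Golgi stress (chr14:26638074-26665084, plus strand), had the largest log2 fold change of the members other than Kdelr3 in Cpt2L-/- and in DKO against either control group. Its libraries read 137, 110, 114 and 106 CPM in the floxed controls, 116, 112, 151 and 104 in Rab30L-/-, 170, 208, 251 and 225 in Cpt2L-/-, and 165, 156, 305 and 373 in DKO. Among the 16 floxed-colony livers the lowest library with Cpt2 deleted, at 156 CPM, was above the highest with Cpt2 kept, at 151, but 1 Rab30 Ctrl library stood at 162, and within DKO the libraries formed a low pair and a high pair. The log2 fold change was 0.86 ± 0.15 (adjusted p = 0.00119) in Cpt2L-/-, 1.05 ± 0.27 (adjusted p = 0.0155) in DKO against Rab30L-/- and 1.09 ± 0.26 (adjusted p = 0.0163) in DKO against the floxed controls. By share of the 4 Arf genes' FPKM, Arf4 held 19.2 ± 2.45% (SD, n = 4) in the floxed controls, 18.1 ± 2.33% in Rab30L-/-, 27.6 ± 2.29% in Cpt2L-/- and 32.4 ± 8.29% in DKO. In Rab30 Ctrl and Rab30KO the means of Arf4 were 113 ± 37.7 and 101 ± 20.7 CPM.

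Arfgef1, an exchange factor that loads Arf with GTP at the trans-Golgi, read 158, 122, 120 and 111 CPM in the floxed controls, 139, 107, 97.6 and 119 in Rab30L-/-, 168, 158, 138 and 153 in Cpt2L-/-, and 204, 215, 181 and 177 in DKO. It rose by 0.75 ± 0.14 on the log2 scale (adjusted p = 0.00264) from Rab30L-/- to DKO and by 0.60 ± 0.15 (adjusted p = 0.0162) from the floxed controls to DKO. Arl1, which recruits golgins to the trans-Golgi, rose by 0.41 ± 0.13 (adjusted p = 0.0344) and Arf5 fell by 0.57 ± 0.14 (adjusted p = 0.00926), both from Rab30L-/- to DKO. The Arf5 libraries of Rab30L-/- were above those of the floxed controls, as given above, and its DKO libraries, at 35.4, 32.4, 41.2 and 41.5 CPM, overlapped with the floxed controls. Arf1, Arf3 and Gbf1, the exchange factor of the early Golgi, were called in no comparison.

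The KDEL receptors bring escaped ER chaperones back from the Golgi. Kdelr1 and Kdelr2, the copies that the liver expressed, were called in no comparison, with 66.4 ± 7.66 and 61.6 ± 3.18 CPM (SD, n = 4) in the floxed controls and 70.3 ± 9.49 and 84.0 ± 16.2 in Cpt2L-/-. Kdelr3 had 1, 1, 1 and 3 counts in the floxed controls, 1, 2, 3 and 3 in Rab30L-/-, 15, 11, 18 and 18 in Cpt2L-/-, and 10, 0, 18 and 60 in DKO. All 4 Cpt2L-/- libraries were above the floxed controls, while 1 DKO library had no count, which allows up to 3 counts, and another had the most of all 24. Over the summed library totals the ratio of Cpt2L-/- to the floxed controls was 11.6 (95% exact interval from 5.02 to 32.7, from 62 and 6 counts), and that of DKO to Rab30L-/- was 10.2 (from 5.12 to 23.0, from 88 and 9 counts), intervals that cover counting error only. DKO replicate 4 held 60 of the 88 counts, and without it the latter ratio was 4.77 (from 2.19 to 11.5, from 28 and 9 counts), while with any 1 library left out, a check chosen after seeing the data, the former ran from 9.98 to 17.2. The exons of Kdelr3 overlap those of Ddx17 on the opposite strand, and without strand the reads in the stretch that the 2 genes share cannot be told apart.

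**Figure D4:**
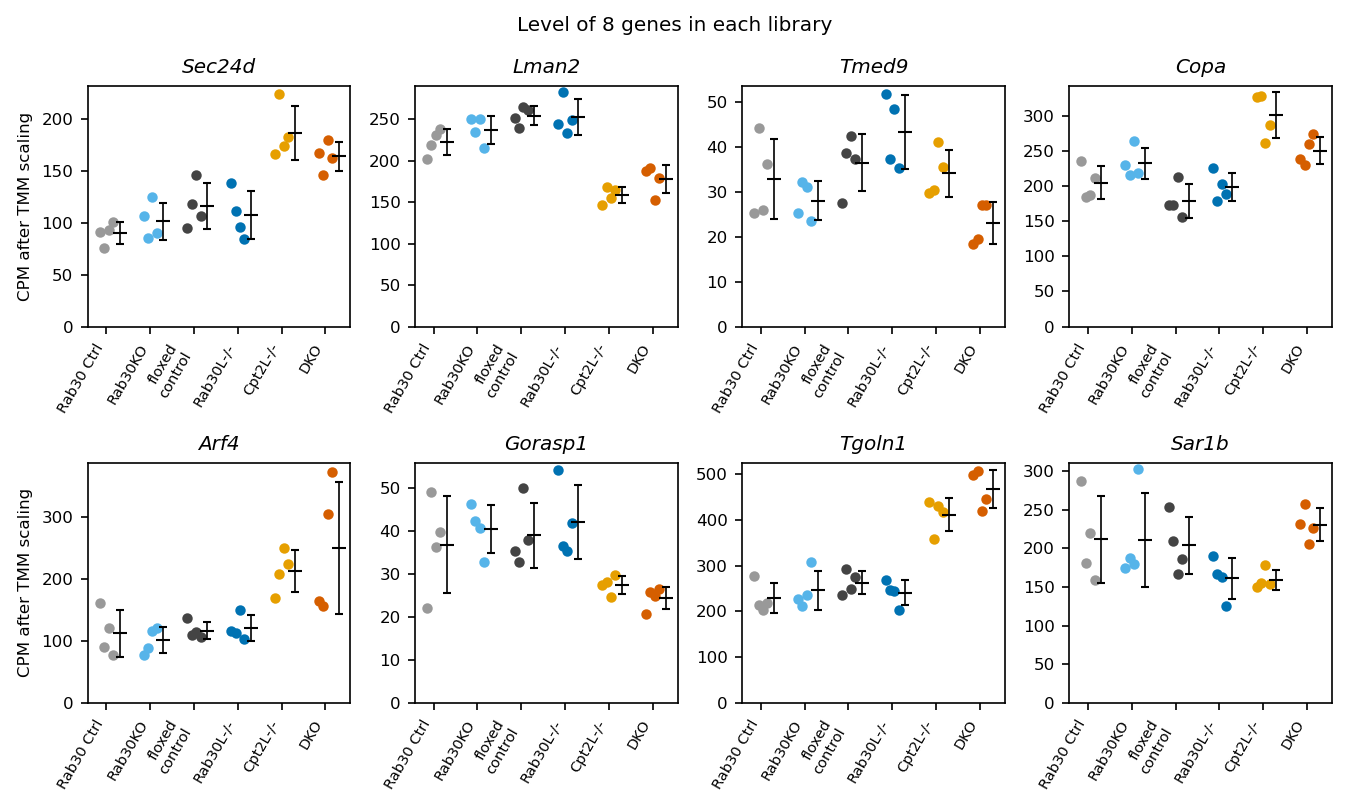
CPM after TMM scaling (y axis, from 0) of 8 members in each of 24 libraries by group, with points for libraries and bars at the mean and SD of 4. Lman2 and Gorasp1 sit lower, and Sec24d, Copa, Arf4 and Tgoln1 sit higher, in Cpt2L-/- and DKO than in the floxed controls, Tmed9 is lowest in DKO, and Sar1b is higher in DKO than in Cpt2L-/-.

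At the trans-Golgi, Tgoln1, a membrane protein that cycles between the trans-Golgi and the cell surface (chr6:72608432-72617000, minus strand), read 235, 292, 249 and 275 CPM in the floxed controls, 268, 247, 245 and 203 in Rab30L-/-, 438, 358, 430 and 416 in Cpt2L-/-, and 498, 507, 418 and 446 in DKO. The lowest library with Cpt2 deleted, at 358 CPM, lay above the highest with Cpt2 kept, at 292 in the floxed colonies and 308 in Rab30KO. The log2 fold change was 0.63 ± 0.14 (adjusted p = 0.00531) in Cpt2L-/- and 0.82 ± 0.14 (adjusted p = 0.00251) in DKO against the floxed controls, and 0.96 ± 0.14 (adjusted p = 0.000534) in DKO against Rab30L-/-, and the call held in all 8 fits that left out 1 library in each. In Rab30 Ctrl and Rab30KO Tgoln1 had 229 ± 33.3 and 246 ± 42.6 CPM (SD, n = 4).

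Gorasp1, the reassembly protein that stacks cis-Golgi cisternae (chr9:119925257-119937565, minus strand), read 35.4, 32.8, 49.9 and 37.8 CPM in the floxed controls, 54.2, 36.6, 35.4 and 41.8 in Rab30L-/-, 27.5, 28.0, 24.6 and 29.7 in Cpt2L-/-, and 20.7, 25.7, 24.9 and 26.6 in DKO. Every library with Cpt2 deleted was below every library of the other floxed groups, while 1 Rab30 Ctrl library stood at 22.0 CPM. Gorasp1 fell by 0.78 ± 0.16 on the log2 scale (adjusted p = 0.00359) from Rab30L-/- to DKO, by 0.68 ± 0.16 (adjusted p = 0.0130) from the floxed controls to DKO, and by 0.52 ± 0.16 (adjusted p = 0.0304) from the floxed controls to Cpt2L-/-, the last in 2 of 8 fits that left out 1 library. Its partner Gorasp2 was called in no comparison, with 87.8 ± 6.33 CPM (SD, n = 4) in the floxed controls and 109 ± 4.90 in Cpt2L-/-.

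Golga4, a golgin of the trans-Golgi, read 73.8, 101, 116 and 80.3 CPM in the floxed controls, 98.9, 76.8, 110 and 85.4 in Rab30L-/-, 155, 128, 119 and 142 in Cpt2L-/-, and 133, 134, 155 and 129 in DKO. It rose by 0.57 ± 0.13 (adjusted p = 0.00801) from Rab30L-/- to DKO, and the calls against the floxed controls, 0.54 ± 0.17 (adjusted p = 0.0337) in Cpt2L-/- and 0.56 ± 0.16 (adjusted p = 0.0359) in DKO, held in 2 and 1 of 8 fits that left out 1 library. Golga5 rose by 0.55 ± 0.13 (adjusted p = 0.00995) and Trip11, a golgin of the cis-Golgi, by 0.36 ± 0.11 (adjusted p = 0.0257) from Rab30L-/- to DKO. Gcc1, a trans-Golgi golgin, fell by 0.51 ± 0.15 (adjusted p = 0.0276) there, although its libraries overlapped between the groups. Golga1, Golga2, Golga3, Golgb1 and Gcc2 were called in no comparison.

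DKO against the floxed controls gave 10 calls of 57 members, 7 higher and 3 lower, which is 17.5% beside 16.1% of all genes tested (7.87% higher and 8.24% lower). The libraries of 14 members (24.6%) did not overlap, beside 20.5% of all genes tested. It shares the floxed controls with the comparison of Cpt2L-/- and the DKO libraries with that of Rab30L-/-, so its calls are not separate evidence. With library totals in place of TMM the calls were 16 higher and 1 lower, with the median of all genes at 0.17. In DKO against Cpt2L-/-, where the added loss was that of Rab30, the 95% intervals of 57 of 58 members lay within 2-fold, Kdelr3 being the exception. Tmed9 had the lowest log2 value there, -0.55 ± 0.16 (adjusted p = 0.0830), and was not called.

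Exons of 11 of the 28 members called in any comparison overlap those of another gene in GENCODE release 21 of the mouse. Arf4 overlaps Pde12 and Arf4os, Copa overlaps Ncstn and Gm37756, Gorasp1 overlaps Wdr48, Kdelr3 overlaps Ddx17, and Arf5 and Gcc1 overlap each other. Tgoln1 overlaps Gm20536, Sec23a overlaps Gm17529, Tmed10 overlaps Gm47819, Arl1 overlaps Gm4925, Trip11 overlaps Gm20036, and Gcc1 also overlaps Fscn3. All of these partners lie on the opposite strand. The counting is not stated to use strand, so reads in the stretches that these genes share with their partners cannot be told apart.

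Other genes of the pathway, 89 that were not members, were set beside them. In Cpt2L-/- against the floxed controls 9 were called higher and 4 lower of 88 tested (14.8% beside 23.8% of all genes tested), and in DKO against Rab30L-/- 15 higher and 7 lower (25.0% beside 30.7%). Arfgap3, which switches off Arf1 on COPI vesicles, rose by 1.38 and 0.88 on the log2 scale (adjusted p = 0.000147 and 0.0457), and the p24 protein Tmed5 rose by 1.19 (adjusted p = 0.000350) from Rab30L-/- to DKO. Rab1a, the Rab of ER to Golgi traffic, rose by 0.81 (adjusted p = 0.00114) in the latter, where its paralogue Rab1b fell by 0.49 (adjusted p = 0.0110). Tango2 fell, with log2 fold changes of -0.66 and -0.43 (adjusted p = 0.0151 and 0.0257), and Arfgap2, the paralogue of Arfgap3, fell too, with -0.53 and -0.54 (adjusted p = 0.0203 and 0.00645). Tmf1, a golgin outside the list of members, differed between the comparisons. It fell by 0.44 on the log2 scale (adjusted p = 0.0245) in Cpt2L-/- against the floxed controls, a call lost with library totals in place of TMM, and rose by 0.69 (adjusted p = 0.00930) from Rab30L-/- to DKO. Its interaction was 1.14 (adjusted p = 0.00449).

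A further list held 21 regulators and targets of ER stress. Of 20 tested, 2 were higher and 6 lower in Cpt2L-/- against the floxed controls (40.0% beside 23.8% of all genes tested), and 3 higher and 6 lower in DKO against Rab30L-/- (45.0% beside 30.7%). The ER stress kinase Eif2ak3 (PERK) rose by 1.41 and 1.40 on the log2 scale (adjusted p = 5.4e-05 and 0.00137) and Ddit3 (CHOP), a factor of the stress response, by 0.82 and 1.42 (adjusted p = 0.0123 and 0.0193). The ER folding genes Sdf2l1 and Pdia6 fell, Sdf2l1 with log2 fold changes of -1.55 and -2.98 (adjusted p = 0.00460 and 0.0222) and Pdia6 with -1.10 and -1.39 (adjusted p = 0.000346 and 0.00180). The ER co-chaperone Dnajb9 rose by 0.60 (adjusted p = 0.0135) from Rab30L-/- to DKO, and was not called in Cpt2L-/- against the floxed controls. It also rose by 0.60 (adjusted p = 0.0237) from Cpt2L-/- to DKO, where the added loss was that of Rab30. There it was the 1 gene called of 20 tested in this list (5% beside 2.71% of all genes tested).

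Promoters were searched for 3 sequences bound by factors of the ER and Golgi stress responses, in the RefSeq table of 300 bases around each start (250 before and 50 after, build GRCm38.p6), where 51 of the 58 members had an entry. The letters of the unfolded protein response element, TGACGTGG on either strand, stood in the promoters of 9 members (Arf1, Copb1, Copb2, Gbf1, Kdelr3, Sec16b, Sec23a, Sec24d and Stx5a), which is 17.6% of 51, beside 0.714% of the 27025 genes with a promoter and 0.676% of all promoters. The cAMP response element, TGACGTCA, stood in those of Cope and Gosr2, 3.92% of 51, beside 2.03% of genes and 1.79% of promoters. The ER stress response element, CCAAT and CCACG set 9 bases apart, was found in no member and in 0.119% of all promoters. The 9 include members called higher (Copb1, Copb2, Sec23a and Sec24d), a member called lower (Sec16b), members called in no comparison (Arf1, Gbf1 and Stx5a) and Kdelr3, which is described by its counts alone. No link between the element and a change was tested, and the letters in these windows do not say that a factor binds there. Below are the promoters of the 4 called higher, of Kdelr3 and of Gbf1, which was not called, with the element in capitals as it reads on the strand of the gene.
Sec24d (chr3:123267246-123267545, plus strand): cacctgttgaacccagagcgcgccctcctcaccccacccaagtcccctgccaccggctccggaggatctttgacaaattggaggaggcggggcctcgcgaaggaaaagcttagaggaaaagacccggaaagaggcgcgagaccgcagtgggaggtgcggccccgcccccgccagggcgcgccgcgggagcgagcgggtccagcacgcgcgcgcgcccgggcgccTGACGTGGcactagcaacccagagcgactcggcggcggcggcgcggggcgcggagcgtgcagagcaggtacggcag
Sec23a (chr12:59011968-59012267, minus strand): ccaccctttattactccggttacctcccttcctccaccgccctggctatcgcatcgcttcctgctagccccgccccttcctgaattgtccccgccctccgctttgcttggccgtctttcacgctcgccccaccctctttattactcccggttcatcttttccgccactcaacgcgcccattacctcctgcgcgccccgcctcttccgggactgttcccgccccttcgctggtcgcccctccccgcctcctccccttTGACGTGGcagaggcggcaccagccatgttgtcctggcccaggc
Copb1 (chr7:114254631-114254930, minus strand): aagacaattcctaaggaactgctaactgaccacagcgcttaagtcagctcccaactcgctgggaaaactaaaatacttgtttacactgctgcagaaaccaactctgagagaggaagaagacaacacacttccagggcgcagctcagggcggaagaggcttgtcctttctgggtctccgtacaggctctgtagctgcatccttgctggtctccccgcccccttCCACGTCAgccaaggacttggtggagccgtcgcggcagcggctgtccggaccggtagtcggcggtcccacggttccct
Copb2 (chr9:98563481-98563780, plus strand): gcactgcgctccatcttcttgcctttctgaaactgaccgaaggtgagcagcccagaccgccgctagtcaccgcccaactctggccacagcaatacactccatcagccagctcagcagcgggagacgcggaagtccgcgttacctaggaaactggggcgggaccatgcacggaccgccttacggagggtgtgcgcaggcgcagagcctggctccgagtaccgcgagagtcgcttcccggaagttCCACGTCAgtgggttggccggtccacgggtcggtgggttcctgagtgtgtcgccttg
Kdelr3 (chr15:79516158-79516457, plus strand): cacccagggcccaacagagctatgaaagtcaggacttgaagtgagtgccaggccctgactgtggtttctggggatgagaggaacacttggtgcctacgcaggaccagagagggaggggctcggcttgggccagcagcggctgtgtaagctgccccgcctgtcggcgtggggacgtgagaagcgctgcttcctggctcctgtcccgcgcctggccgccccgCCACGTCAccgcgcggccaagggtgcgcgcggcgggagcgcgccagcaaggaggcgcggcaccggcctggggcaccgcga
Gbf1 (chr19:46152308-46152607, plus strand): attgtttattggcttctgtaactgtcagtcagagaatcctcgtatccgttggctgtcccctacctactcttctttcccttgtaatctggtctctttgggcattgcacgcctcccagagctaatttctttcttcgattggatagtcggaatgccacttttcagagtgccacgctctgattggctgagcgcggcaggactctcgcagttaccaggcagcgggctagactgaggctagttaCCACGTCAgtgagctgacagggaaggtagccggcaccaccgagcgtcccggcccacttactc
The element starts 26 bases before the annotated start in Sec24d, 28 before in Copb1, 7 before in Copb2, 30 before in Kdelr3 and 12 before in Gbf1, and 6 bases after the start in Sec23a.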

How the data were processed

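Liver RNA-seq libraries, 4 in each of 6 groups, were grouped by their labels. The authors deposited raw read counts per gene and FPKM values. HISAT2, DESeq2 and GRCm38 (mm10) stand in the submitters' processing notes, while the counter, the annotation and the strand setting are not given in the sources used here. A table of counts normalized across libraries and tables of the authors' own comparisons (fold changes and p-values) were also deposited and were not used.

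Counts were tested with edgeR 4.0.16 in R 4.3.3 (filterByExpr, TMM, robust quasi-likelihood fit, Benjamini-Hochberg adjustment over all genes tested), each pair on its own 8 libraries and the interaction on 16. Library totals of 11801027 to 24497738 counts set the precision, and the p-values measure the spread between 4 livers per group. Alternatives were DESeq2 1.42.0 (size factors, and its Wald test), limma-voom 3.58.1 with quality weights, library totals without TMM, no fold threshold, no filter or a minimum of 10 counts per library, 1 fit over 24 libraries, and leaving out each library. The edgeR, limma-voom and DESeq2 Wald tests were tested on simulated data. There the share of false calls exceeded the threshold with the DESeq2 Wald test in every comparison and by the most, with limma-voom in most, and with edgeR in Rab30KO against Rab30 Ctrl and in Cpt2L-/- against the floxed controls. Counts by the Wald test are therefore given as alternatives only.

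Values are given for every member past the thresholds and for sets of paralogues, and of the other lists for at most 4 genes per direction. The members and lists were chosen with earlier results of these data known. Gene positions follow the deposited table, and 56 of 58 members have the same start and end in GENCODE release 21 of the mouse. Promoters come from RefSeq (GRCm38.p6). Positions were read 1-based.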

Additional observations from a re-analysis of the deposited data

Results flagged for a closer look

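Among the 28 members called in a comparison, 168 groups of 4 libraries were examined for a library far from the other 3 of its group, by a criterion that chance meets in about 1 in 20 groups, and 8 libraries met it. In Rab30 Ctrl these were Copb2 at 151 CPM in replicate 1 (others 117 to 122), Arl1 at 156 CPM in replicate 1 (others 89.6 to 101) and Sec24b at 22.6 CPM in replicate 2 (others 29.1 to 29.6). In Rab30KO they were Sar1b at 302 CPM in replicate 4 (others 174 to 187) and Uso1 at 109 CPM in replicate 2 (others 122 to 124). In the floxed controls they were Arcn1 at 219 CPM in replicate 1 (others 173 to 174) and Golga5 at 52.2 CPM in replicate 3 (others 38.7 to 39.4), and in DKO Arl1 at 163 CPM in replicate 4 (others 129 to 131).

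The change of Sar1b with loss of Rab30 differed by the state of Cpt2, with an interaction of 0.89 on the log2 scale in edgeR's quasi-likelihood test. It was the 1 member called of 58 (1.72% beside 4.06% of all genes tested), and the fit over 24 libraries called 0. This pattern and litter cannot be told apart.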

How the results depend on the processing

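No paired analysis was possible because no 2 groups share replicate numbers in the labels: the titles number the Rab30KO livers alone, and the numbers in the other titles differ between groups. Without TMM the number of members called became 31 in Cpt2L-/- (53.4% beside 34.5% of all genes tested) and 17 in DKO against the floxed controls (29.8% beside 20.2%) and 2 in the interaction (3.45% beside 4.01%). Limma-voom called 23 in Cpt2L-/- (39.7% beside 31.9%) and 17 in DKO against the floxed controls (29.8% beside 27.9%), 5 in DKO against Cpt2L-/- (8.62% beside 11.5%) and 5 in the interaction (8.62% beside 9.20%). The DESeq2 Wald test called 3 in DKO against Cpt2L-/- (5.17% beside 7.76%) and 4 in the interaction (6.90% beside 7.68%), the fit over 24 libraries 0 in each (beside 0.782% and 2.56%), and the fit without a filter 2 in DKO against Cpt2L-/- (3.45% beside 2.79%). Of the values of called members, 375 under the planned settings kept their direction and 21 of them lost the call. The 375 include, for each called member, the value without a fold threshold, which is the main fit itself and could not differ. Of 384 with a library left out all kept their direction and 93 lost the call. The causes were not tested.

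Leaving out 1 library gave 7 to 13 calls in Cpt2L-/- against the floxed controls (7 without floxed control replicate 4, 12.1% beside 20.003% of all genes tested, and 13 without floxed control replicate 3, 22.4% beside 25.4%), 16 to 26 in DKO against Rab30L-/- (16 without Rab30L-/- replicate 4, 27.6% beside 23.6%, and 26 without Rab30L-/- replicate 1, 44.8% beside 29.3%), 1 to 2 in the interaction (2 without floxed control replicate 3, 3.45% beside 4.60%), and 0 to 0 for either loss of Rab30 alone. In DKO against the floxed controls it gave 4 to 12, with 4 without floxed control replicate 4 (6.90% beside 11.1%), 6 without floxed control replicate 2 (10.3% beside 11.7%) and 5 without DKO replicate 1 (8.77% beside 10.9%), so that in these 3 fits the members' share lay below that of all genes, against above it with all libraries. In DKO against Cpt2L-/- it gave 0 to 1, with 0 without DKO replicate 1 or 2 or Cpt2L-/- replicate 1, 2 or 4.

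Changes of the targeted genes that were not called turned direction under some settings. With 1 library left out, the log2 fold change of Rab30 in Rab30KO ran from -0.66 to 0.35 (0.35 without Rab30 Ctrl replicate 1), that of Cpt2 in Cpt2L-/- from -0.23 to 0.036 (0.036 without Cpt2L-/- replicate 1), and that of Rab30 in DKO against Cpt2L-/- from -0.087 to 0.32 (-0.087 without DKO replicate 3). Without TMM, Cpt2 in Cpt2L-/- was at 0.21, and with limma-voom Rab30 in DKO against Cpt2L-/- was at -0.078.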
